A study of Mus musculus with 6 samples.

Results

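The genes described here are the 20 cytosolic aminoacyl-tRNA synthetases and 15 genes of the amino acid response, 35 of the 24420 genes in the deposited count table. They were listed by gene symbol as members of the pathway, with earlier results of these data known, and each of the 35 symbols was found in the table. RNA was sequenced from YFP+ CD4+ Treg cells of 3 OGT-sufficient and 3 OGT-deficient female C57BL/6 mice, with 1 library per mouse and lymph nodes given as the tissue. The OGT-sufficient mice were Foxp3YFP-Cre/wt Ogtwt/fl, and the OGT-deficient mice were Foxp3YFP-Cre/wt Ogtfl/fl. Both groups therefore carried 1 Foxp3 allele with YFP-Cre, 1 wild-type Foxp3 allele and at least 1 floxed Ogt allele. The labels give no age, and the general range stated for mice other than the young males was 6 to 12 weeks. Cre was driven by the Foxp3 locus, which directs it to Foxp3-expressing cells. Foxp3 lies on the X chromosome, and these females therefore also kept YFP- Treg cells that used the wild-type Foxp3 allele.

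Aminoacyl-tRNA synthetases join each amino acid to its tRNA and so supply the ribosome with charged tRNA. When charged tRNA runs short, uncharged tRNA activates the kinase GCN2, encoded by Eif2ak4, which phosphorylates the initiation factor eIF2α, lowers general translation and raises translation of the transcription factor ATF4. ATF4 then induces genes of amino acid synthesis and uptake and many of the synthetases themselves, and in T cells this pathway is known to tie proliferation and effector function to amino acid supply. OGT, the transferase that places O-GlcNAc on intracellular proteins, uses a nucleotide sugar made from glucose, glutamine and acetyl groups. The comparison asked which of these genes differed in level between the genotypes.

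Ogt itself (chrX:101640060-101684351, plus strand of GRCm38) was checked before the members. Its counts were 562, 632 and 957 where the labels give OGT-sufficient cells and 327, 266 and 368 where they give OGT-deficient ones, in the order of the replicate numbers, as are all values below. The groups did not overlap, in the direction of the labels, with a log2 fold change of -1.21 (SE 0.21) and an adjusted p of 0.191 by edgeR's quasi-likelihood test, which ranged from 1.62e-05 to 0.764 over the 13 alternative fits. Foxp3 was measured at 189 to 299 CPM (counts relative to the library size as scaled by TMM, the trimmed mean of M-values) in the OGT-sufficient libraries and at 249 to 291 CPM in the OGT-deficient ones, and each of the 7 Treg-defining markers had counts. Total counts ran from 3375454 to 4103552 per library, of which the ribosomal RNA gene Rn45s took 24.2% to 37.1%. OGT-sufficient replicate 3 stood apart: it had counts for 18346 genes, against 14412 to 15197 in the other 5 libraries, the lowest share of Rn45s and the lowest summed level of the Treg-defining markers (1990 CPM against 2630 to 2950 CPM). Its summed neutrophil markers (139 CPM against 6.94 to 29.0 CPM) and erythroid markers (846 CPM against 217 to 480 CPM) were above those of each other library, and results that rest on it are given with and without it. The other libraries also differed in RNA of other cells. Summed macrophage markers were at 3910, 3410 and 1870 CPM in OGT-sufficient and 1320, 4770 and 5710 CPM in OGT-deficient replicates 1, 2 and 3. Their part in the levels of the members was not tested. In bulk RNA, fewer cells of a type and less RNA per cell cannot be told apart.

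Across all 10949 genes that passed the low-count filter, 3 had an adjusted p under 0.1, or 0.0274%. Of the 35 members 32 passed the filter, and Chac1, Trib3 and Slc7a11 did not. None of the 32 had an adjusted p under 0.1 by edgeR's quasi-likelihood test, DESeq2 or edgeR's exact test, and 3 had an unadjusted p under 0.05 by the quasi-likelihood test, all lower in OGT-deficient cells. The background at that threshold was 4.01% of genes lower and 3.09% higher. Those 3 members were Psat1, Phgdh and Eif2ak4, all from the amino acid response group and none from the synthetases. Without OGT-sufficient replicate 1, none of the 3 remained under that threshold, and the same held without OGT-deficient replicate 3.

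Before the values, promoter sequences of some members are shown. The letters searched, TGATGNAA, are the core of the C/EBP-ATF response element that ATF4 binds with C/EBP partners. In the 250 bases before each RefSeq start (GRCm38.p6), TGATGNAA was searched on both strands, on which it reads TTNCATCA when opposite to the promoter. A RefSeq promoter was given for 27 of the 35 members, and not for Cars, Rars, Vars, Wars, Slc7a5, Hars, Lars and Nars. Among members with a promoter, 3 of 13 synthetases (23.1%) and 3 of 14 amino acid response genes (21.4%) held a match. Among all genes with a RefSeq promoter, whether counted here or not, 1056 of 27025 (3.91%) did. A match here describes letters and is no evidence of binding. The lines below give the matches of 5 members with their flanks, 5′ to 3′ on the strand of the gene, with the matched letters in capitals. Whether these letters bear on the level of any member was not tested.
Asns: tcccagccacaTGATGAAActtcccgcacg
Chac1: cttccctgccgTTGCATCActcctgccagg
Slc7a11: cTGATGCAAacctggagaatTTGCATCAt
Gars: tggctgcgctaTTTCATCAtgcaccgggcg
Tars: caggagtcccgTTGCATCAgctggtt
The windows lie at chr6:7693214-7693243 on the minus strand for Asns, chr2:119351038-119351067 on the plus strand for Chac1, chr3:50443652-50443680 on the minus strand for Slc7a11, chr6:55037960-55037989 on the plus strand for Gars and chr15:11399659-11399684 on the minus strand for Tars. The match was 23 to 16 bases before the RefSeq start in Asns, 193 to 186 in Chac1, 30 to 23 in Gars and 15 to 8 in Tars, and the pair of matches in Slc7a11 ran from 66 to 40. In the GENCODE M21 annotation, whose gene starts differ, the windows of Asns and Tars touch an annotated exon of the gene and those of Chac1, Gars and Slc7a11 lie outside it.

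The 20 synthetases, all of which passed the filter, showed no difference between the groups that could be told from the spread between mice. Their fold changes divided into 11 lower and 9 higher in OGT-deficient cells, with a median log2 fold change of -0.02, against -0.02 over all genes tested. With all 6 libraries, no synthetase had an unadjusted p under 0.05 by edgeR's quasi-likelihood test, DESeq2 or the exact test, and the lowest p of the first of these, that of Tars, was 0.0998. On leaving out 1 library, Qars had an unadjusted p of 0.0253, lower, without OGT-sufficient replicate 3, and Lars had 0.0423, higher, without OGT-deficient replicate 3 (edgeR's quasi-likelihood test). The 95% intervals of the 20 fold changes all lay between -0.55 and 0.53 on the log2 scale, that is, between 0.682 and 1.44 of the OGT-sufficient level, so that differences larger than these lie outside each gene's interval. Their summed level was 1490, 1470 and 1400 CPM in the OGT-sufficient libraries and 1460, 1460 and 1340 CPM in the OGT-deficient ones, and these ranges overlap.

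Tars, which charges threonine, had the lowest fold change of the synthetases, with 81.4, 77.0 and 81.5 CPM in OGT-sufficient and 68.3, 76.8 and 56.9 CPM in OGT-deficient replicates 1, 2 and 3. The groups did not overlap, though the nearest values, 77.0 and 76.8 CPM, were almost equal, and the log2 fold change of -0.25 (SE 0.14) had an adjusted p of 0.755 by edgeR's quasi-likelihood test. Yars, which charges tyrosine, was measured at 30.9, 32.2 and 29.6 CPM against 28.3, 26.0 and 24.8 CPM, also without overlap, with a log2 fold change of -0.23 (SE 0.14) and an adjusted p of 0.757 by the same test. These were the synthetases whose groups did not overlap, 2 of 20 and both lower, where 7.48% of all genes tested were lower without overlap and 5.72% were higher without overlap. A short stretch of Yars exons, 30 bases, is shared with C77080 on the opposite strand.

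At the other end, Lars, which charges leucine, was measured at 66.8, 57.1 and 60.8 CPM in OGT-sufficient and 72.4, 80.1 and 64.2 CPM in OGT-deficient cells. Its OGT-deficient values were the higher ones but overlapped those of OGT-sufficient replicate 1, and the log2 fold change was 0.23 (SE 0.13) with an adjusted p of 0.755 by the same test. Vars, which charges valine, stood at 99.5, 126 and 109 CPM against 88.1, 95.2 and 104 CPM, a log2 fold change of -0.22 with overlapping groups. Hars and Wars, which charge histidine and tryptophan, had log2 fold changes of 0.15 and 0.14, and Dars and Qars, which charge aspartate and glutamine, of -0.16 and -0.15. The remaining 12 synthetases, for alanine (Aars), cysteine (Cars), glutamate and proline (Eprs), phenylalanine (Farsa and Farsb, its subunits), glycine (Gars), isoleucine (Iars), lysine (Kars), methionine (Mars), asparagine (Nars), arginine (Rars) and serine (Sars), had log2 fold changes from -0.10 to 0.10. Of these, Iars varied least between libraries, with 62.3, 63.8 and 66.1 CPM against 66.0, 61.2 and 65.5 CPM.

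**Figure D1:**
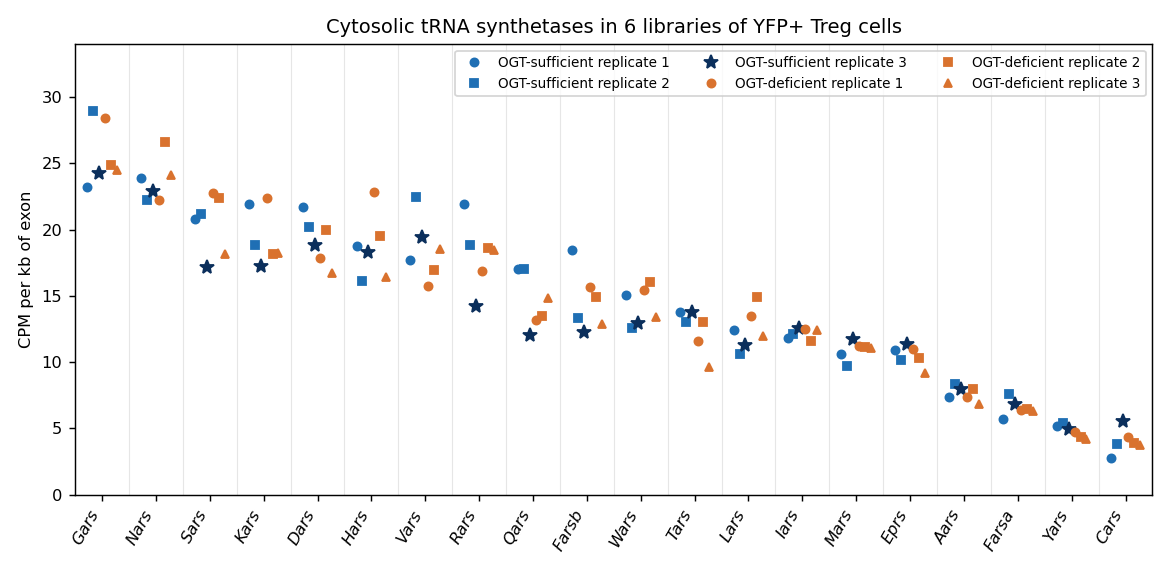
Level of each cytosolic synthetase in each of the 6 libraries, in CPM per kb of exon, ordered by mean level; each symbol is 1 library and the star is OGT-sufficient replicate 3. The means over 6 libraries fall from 25.7 for Gars to 4.03 for Cars, and the OGT-sufficient and OGT-deficient symbols are mixed in each gene except Tars and Yars.

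Sorting the synthetases by structure or by complex showed the same small differences. The 9 class I enzymes, which share a Rossmann fold, had a median log2 fold change of -0.01, and the 10 class II enzymes, built on another fold, had -0.002 (Eprs, which holds a domain of each class, was counted in neither). The summed class I level was 549, 553 and 512 CPM against 516, 530 and 525 CPM, and the summed class II level was 746, 732 and 686 CPM against 743, 744 and 652 CPM. The 8 enzymes of the multi-synthetase complex (Dars, Eprs, Iars, Kars, Lars, Mars, Qars and Rars) had a median of -0.01, and the 12 outside it had -0.02. Both pairs of summed levels overlapped between the genotypes, and no subgroup held a member with an unadjusted p under 0.05.

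Per length, synthetase mRNAs covered a narrow range. Gars was the most abundant at 25.7 CPM per kb of exon over the 6 libraries, followed by Nars (23.7), Sars (20.4), Kars (19.4) and Dars (19.2), and Aars (7.62), Farsa (6.57), Yars (4.81) and Cars (4.03) were the least abundant. These values divide by all annotated exon bases of a gene, so that long annotated exons lower them. The subunits of phenylalanyl-tRNA synthetase, which assemble in equal numbers, had 14.6 CPM per kb for Farsb and 6.57 for Farsa, with exon lengths of 2.62 and 4.54 kb. Farsb shares 248 exon bases with Sgpp2 on the opposite strand, and Aars shares 1326 with Exosc6 on the same strand, the longest overlap of any member. Between libraries, the coefficient of variation of the synthetases had a median of 10.6% and ran from 3.21% for Iars to 22.3% for Cars. Over all genes tested the median was 17.2%, but their median count per library was 92.0, against 264 for the synthetases, and a comparison at equal count was not made. Without OGT-sufficient replicate 3 the medians were 10.4% and 14.8%.

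The amino acid response genes were more variable, with a median coefficient of variation of 25.9% against 10.6% for the synthetases. Without OGT-sufficient replicate 3 these were 21.2% and 10.4%. Several response genes had few counts, which raises this measure, and a comparison at equal count was not made. Of the 12 tested, 8 were lower in OGT-deficient cells and 4 higher. Their median log2 fold change was -0.18, against -0.02 over all genes tested, and -0.07 without OGT-sufficient replicate 3. Of the 12, Phgdh and Eif2ak4 were lower without overlap between the groups, and none was higher without overlap. With Tars and Yars, 4 of the 35 members were lower without overlap, against the 7.48% of genes given above.

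**Figure D2:**
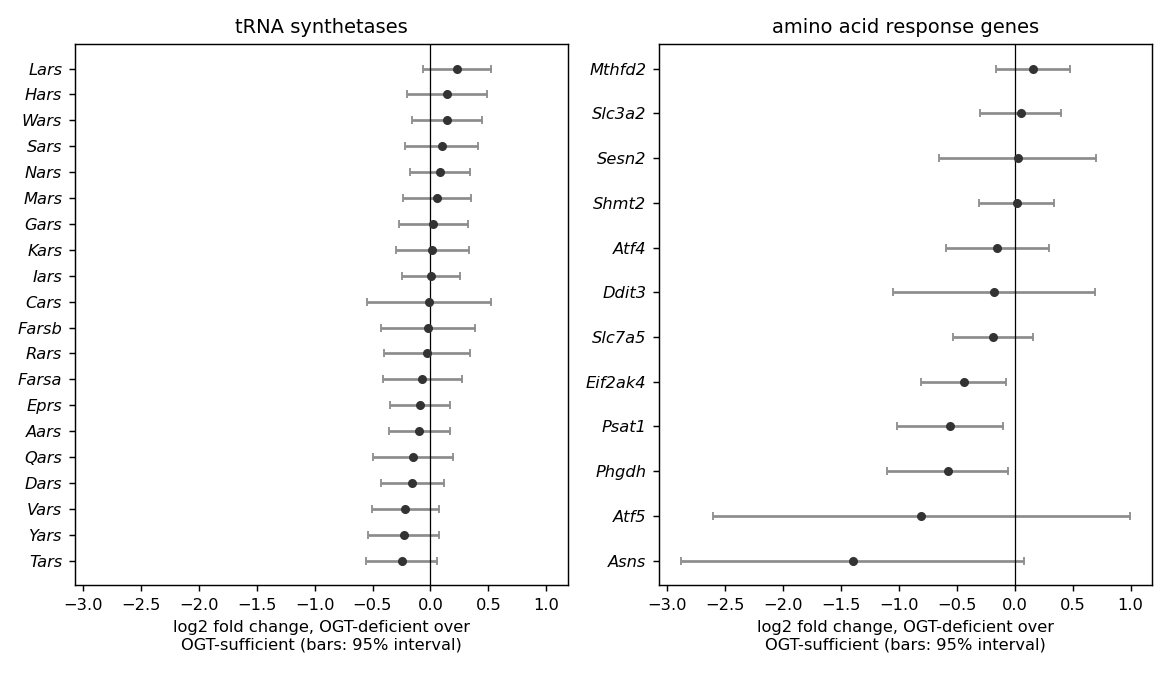
Fitted log2 fold change of OGT-deficient over OGT-sufficient cells for the 20 synthetases and the 12 amino acid response genes tested, with bars for the 95% interval of edgeR's quasi-likelihood fit. The synthetases lie between -0.25 and 0.23 with intervals that all include 0, and the intervals of Psat1, Phgdh and Eif2ak4 lie below 0.

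Eif2ak4 (chr2:118388618-118475234, plus strand), which encodes the sensor kinase GCN2, was measured at 30.9, 25.8 and 31.5 CPM in OGT-sufficient and 19.0, 23.7 and 22.2 CPM in OGT-deficient cells. Each OGT-deficient value was below each OGT-sufficient one. The log2 fold change was -0.44 (SE 0.16, 95% interval -0.80 to -0.08), with an unadjusted p of 0.0227 and an adjusted p of 0.595 by edgeR's quasi-likelihood test. The sign was kept in all 13 alternative fits, with adjusted p from 0.589 to 1.0, and the unadjusted p was under 0.05 in 7 of them; it was 0.0538 without OGT-sufficient replicate 3.

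The transcription factors of the response had their highest value in OGT-sufficient replicate 3. Atf4 (chr15:80255184-80257541, plus strand), the central activator, stood at 85.7, 87.2 and 140 CPM in OGT-sufficient and 103, 84.7 and 94.2 CPM in OGT-deficient cells. Outside that library, the other 5 values lay between 84.7 and 103 CPM, and the log2 fold change was -0.15 (SE 0.20) with it and 0.13 without it. Atf4 is controlled largely at translation, which mRNA counts do not measure. Per length it was the most abundant of the 35 members, at 42.0 CPM per kb of exon.

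Atf5, a related factor induced in the same response, had 8, 6 and 49 counts in OGT-sufficient and 4, 16 and 17 counts in OGT-deficient cells, or 2.13, 1.61 and 12.8 CPM against 1.03, 4.03 and 4.44 CPM. Its log2 fold change went from -0.80 (SE 0.79) with all libraries to 0.75 without OGT-sufficient replicate 3. Ddit3, which encodes the stress factor CHOP, was measured at 10.9, 14.2 and 34.6 CPM against 18.2, 19.1 and 15.4 CPM. Without OGT-sufficient replicate 3, the Ddit3 values of the OGT-deficient libraries were all above those of the remaining OGT-sufficient ones, and its log2 fold change moved from -0.18 (SE 0.38) to 0.49, with an unadjusted p of 0.0472 and an adjusted p of 0.719 by edgeR's quasi-likelihood test, where the 13 alternatives gave adjusted p from 0.719 to 1.0. The direction of Atf4, Atf5 and Ddit3 thus turned on 1 library. Ddit3 shares 68 exon bases with Mars on the opposite strand, and Atf5 shares 82 with Nup62 and Il4i1; whether the counting used strand is not given in the sources used here.

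The feedback and redox genes of the response were near the detection floor, except Sesn2. A count of 3 corresponded to 0.756 to 0.805 CPM in these libraries. Trib3, a pseudokinase that restrains ATF4 and CHOP, had 5, 8 and 18 counts in OGT-sufficient and 6, 3 and 8 in OGT-deficient cells. Chac1, which degrades glutathione, had 0, 0 and 7 counts against 0, 1 and 1. Both were highest in OGT-sufficient replicate 3 and overlapped between the groups, and neither was tested. Sesn2, a leucine-binding inhibitor of mTORC1 that ATF4 can induce, went the other way, with 47, 42 and 27 counts against 39, 30 and 53 counts and its lowest value in that library.

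Among the synthesis enzymes, those at the entry of serine synthesis were lower in OGT-deficient cells before adjustment. Phgdh (chr3:98313170-98339990, minus strand), which commits a glycolytic intermediate to serine, was measured at 9.85, 12.6 and 9.44 CPM in OGT-sufficient and 7.96, 6.30 and 7.05 CPM in OGT-deficient cells, or 36 to 47 against 25 to 31 counts. Psat1 (chr19:15904678-15947337, minus strand), the transaminase of the next step, was measured at 40.4, 38.1 and 27.8 CPM against 29.8, 21.4 and 21.1 CPM. The Phgdh values did not overlap, whereas the lowest OGT-sufficient Psat1 value, that of replicate 3, was below OGT-deficient replicate 1.

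For Phgdh the log2 fold change was -0.58 (SE 0.23, 95% interval -1.10 to -0.06), with an unadjusted p of 0.0336 and an adjusted p of 0.669 by edgeR's quasi-likelihood test. For Psat1 it was -0.55 (SE 0.20, 95% interval -1.01 to -0.10), with an unadjusted p of 0.0225 and an adjusted p of 0.595. Neither sign depended on OGT-sufficient replicate 3, since the log2 fold changes without it were -0.65 for Phgdh and -0.69 for Psat1. Over the 13 alternatives the unadjusted p was under 0.05 in 9 for Psat1 and in 6 for Phgdh, and the adjusted p ranged from 0.431 to 1.0 and from 0.626 to 1.0. The summed markers of dividing cells moved in the same direction, at 1430 ± 261 CPM in OGT-sufficient and 1190 ± 85.1 CPM in OGT-deficient cells (SD, n = 3 each). By library they were at 1420, 1180 and 1700 CPM against 1090, 1200 and 1260 CPM. The groups thus overlapped, and OGT-sufficient replicate 3 was the highest. Without that library, 1420 and 1180 CPM stood against the same OGT-deficient values. Of the 10 genes, 2 were lower at an unadjusted p under 0.05 by edgeR's quasi-likelihood test, beside 4.01% of all genes tested. The part of these markers in the serine genes and Eif2ak4 was not tested.

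Shmt2 and Mthfd2 carry serine on into one-carbon metabolism in mitochondria, and their difference from Phgdh and Psat1 was not tested. Shmt2, which converts serine to glycine, stood at 32.5, 41.3 and 40.1 CPM against 41.4, 37.3 and 36.5 CPM. Mthfd2, which oxidises the folate-bound one-carbon unit, stood at 42.3, 35.9 and 37.0 CPM against 48.0, 38.3 and 42.0 CPM. Their log2 fold changes were 0.02 (95% interval -0.31 to 0.34) and 0.15 (-0.17 to 0.48), which overlap the intervals of Phgdh and Psat1, and the groups overlapped in both.

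Asns (chr6:7675169-7693254, minus strand), which makes asparagine and is the best known target of ATF4 under amino acid shortage, had the lowest fold change of the members, and its size rested on 1 library. It had 10, 14 and 61 counts in OGT-sufficient and 10, 11 and 12 counts in OGT-deficient cells, or 2.66, 3.76 and 16.0 CPM against 2.57, 2.77 and 3.13 CPM. The other 5 libraries lay together between 2.57 and 3.76 CPM. The log2 fold change was -1.40 (SE 0.65), with an unadjusted p of 0.0609 and an adjusted p of 0.709 by edgeR's quasi-likelihood test. The unadjusted p was under 0.05 in 6 of the 13 alternatives, among them DESeq2 (0.0493) and the exact test (0.0345). Without OGT-sufficient replicate 3 it was -0.17 with an adjusted p of 0.975, where the alternatives ranged from 0.275 to 1.0.

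The transporters of the response had no unadjusted p under 0.05. Slc7a5, the light chain of the LAT1 transporter for leucine and other large neutral amino acids, stood at 30.3, 37.0 and 35.9 CPM against 34.7, 27.7 and 28.4 CPM. Slc3a2, the heavy chain that LAT1 and other transporters share, stood at 103, 79.4 and 81.0 CPM against 76.0, 101 and 96.0 CPM. Per length, Slc3a2 was at 25.4 CPM per kb of exon and Slc7a5 at 8.73. Slc7a11, the cystine transporter that also pairs with Slc3a2, was the lowest of all members per length, at 0.146 CPM per kb over 13.9 kb of annotated exon (Chac1 had fewer counts), with 2, 4 and 17 counts against 4, 8 and 12 counts.

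**Figure D3:**
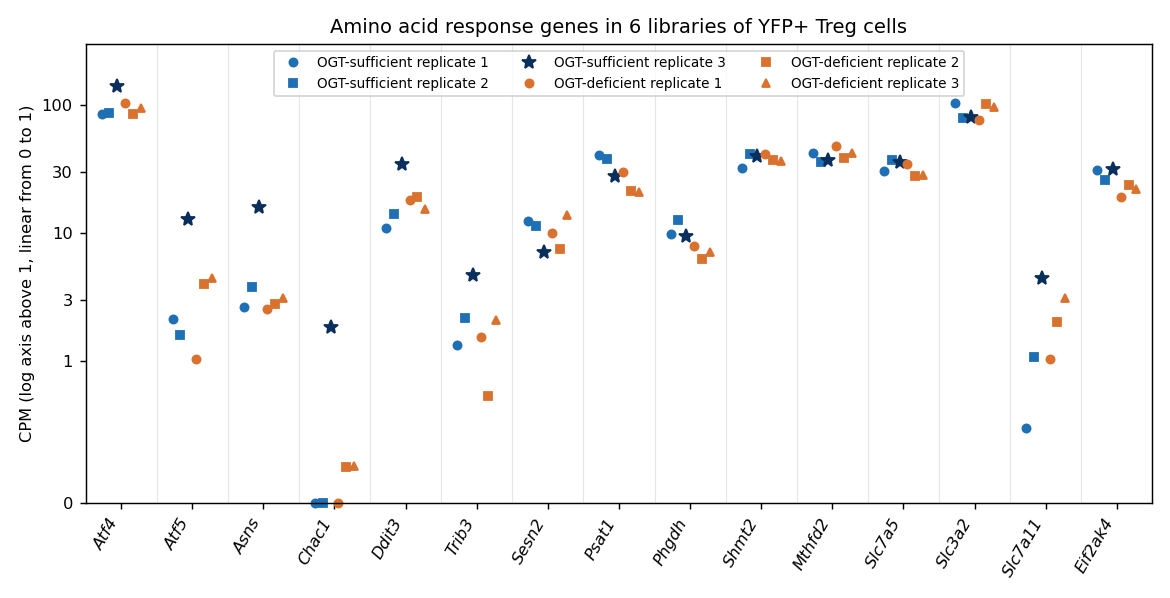
Level of each amino acid response gene in each of the 6 libraries, in CPM on an axis that is linear below 1 and logarithmic above it; each symbol is 1 library and the star is OGT-sufficient replicate 3. The star stands alone above the other symbols in Asns (16.0 CPM), Atf5 (12.8 CPM), Ddit3 (34.6 CPM), Trib3 (4.72 CPM) and Atf4 (140 CPM).

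OGT-sufficient replicate 3 was the highest library in 8 of the 15 amino acid response genes and in 5 of the 20 synthetases. In 5 members it was more than 1.5 times the highest of the other 5 libraries, namely Chac1 (7.03 times), Asns (4.26 times), Atf5 (2.90 times), Trib3 (2.2 times) and Ddit3 (1.81 times). This limit was chosen after the values were seen. Over the whole table, genes of low count included, 17.6% of genes exceeded it in this library, against 5 of the 35 members (14.3%), which is no excess of members. Among genes that passed the filter, 3.31% exceeded it, against 3 of the 32 members tested (9.38%), namely Asns, Atf5 and Ddit3. In the other 5 libraries, 0 members exceeded it, and 0.201% to 0.575% of genes tested did. Scaled by library size alone, the same 3 tested members were above the limit in OGT-sufficient replicate 3, beside 6.96% of genes tested. Slc7a11 then joined Chac1 and Trib3, for 6 of 35 members beside 20.3% of the table.

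The ratios with their counting intervals describe the size of the excess in members already picked for it. The level in OGT-sufficient replicate 3 over that in the other 5 libraries together was 5.38 for Asns (exact 95% interval 3.69 to 7.86, from 61 and 57 counts), 4.83 for Atf5 (3.20 to 7.29, from 49 and 51 counts) and 2.21 for Ddit3 (1.79 to 2.72). It was 17.6 for Chac1, with an interval of 3.35 to 174 that reflects 7 counts against 2, 3.02 for Trib3 (1.58 to 5.59), 2.85 for Slc7a11 (1.47 to 5.33) and 1.54 for Atf4 (1.39 to 1.69). These intervals cover counting error and not the difference between mice, which 1 library cannot give.

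The remaining members had lower ratios in that library. Eif2ak4 was at 1.30 (1.05 to 1.59), an interval above 1, and Slc7a5 was at 1.14 (0.937 to 1.37). Psat1 (0.925), Phgdh (1.08), Shmt2 (1.06), Mthfd2 (0.894) and Slc3a2 (0.888) had ratios from 0.888 to 1.08, and Sesn2 was below these at 0.643 (0.414 to 0.963). Among the synthetases, Cars was the highest at 1.48 (1.22 to 1.79), and the other 19 lay between 0.751 for Rars and 1.13 for Tars. Gars was at 0.934.

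**Figure D4:**
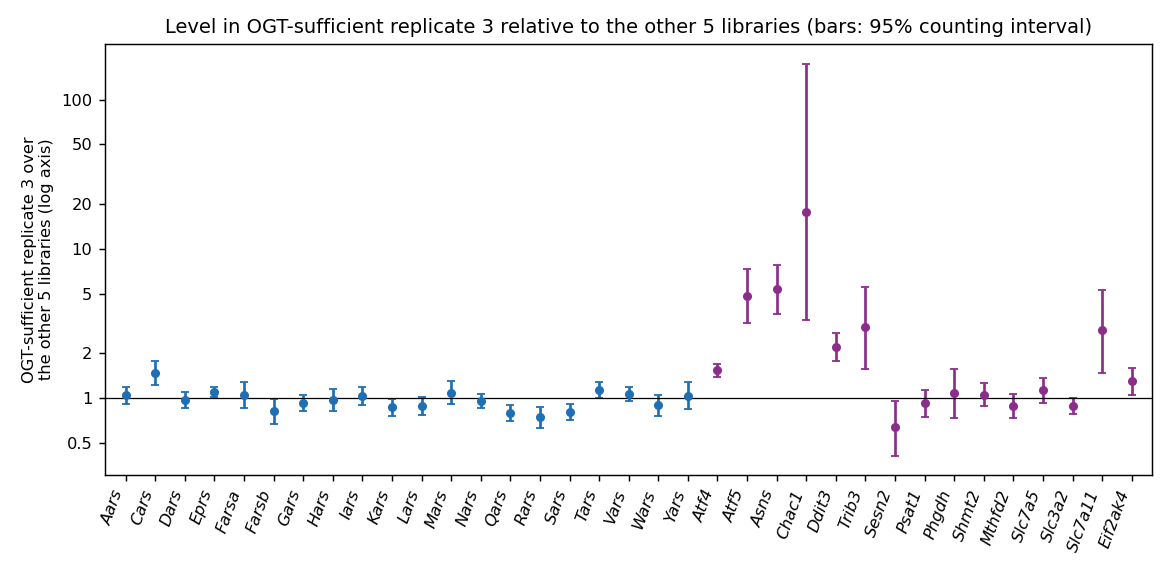
Level of each member in OGT-sufficient replicate 3 divided by its level in the other 5 libraries together, on a log axis, with bars for the exact 95% interval of counting error. Chac1 (17.6), Asns (5.38), Atf5 (4.83), Trib3 (3.02), Slc7a11 (2.85) and Ddit3 (2.21) stand above 2, and 19 of the 20 synthetases lie between 0.751 and 1.13.

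Several other measures were unusual in the same library. Counts fell on 302 of 1096 olfactory receptor genes, which T cells are not known to use, against 12 to 55 in the other libraries. Those genes had 0.137 counts per kb of exon there, and 0.0131 to 0.0288 in the other libraries. Its summed B cell markers were at 266 CPM (79.3 to 139 CPM in the others) and its dividing-cell markers at 1700 CPM (1090 to 1420 CPM). The part of these measures in the high Asns, Atf5, Ddit3, Trib3 and Chac1 counts was not tested.

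Lists of related genes were read in the same fit. In the 17 mitochondrial synthetases 0 had an unadjusted p under 0.05 by edgeR's quasi-likelihood test, and their median log2 fold change was -0.06. The scaffold genes of the multi-synthetase complex (Aimp1, Aimp2 and Eef1e1) had a median of 0.14, also with 0 of 3 under that threshold. A list of 13 genes held eIF2α, its other kinases, their regulators, the eIF2α phosphatase and the exchange factor eIF2B. It had 0 under that threshold and a median of 0.01. In it Ppp1r15a, the inducible phosphatase subunit and itself a target of the response, was measured at 114, 112 and 243 CPM against 120, 128 and 132 CPM. Ppp1r15a was thus also high in OGT-sufficient replicate 3. Ppp1r15a was named after its values were seen.

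In 12 tested genes among 19 other targets of the response, the median log2 fold change was 0.18. At an unadjusted p under 0.05, 1 was higher and 0 were lower (3.09% and 4.01% over all genes tested). That gene was Aldh18a1, which makes the precursor of proline, at 43.1, 60.9 and 45.9 CPM against 63.5, 72.1 and 58.7 CPM with overlapping groups, a log2 fold change of 0.37 (SE 0.16) and an adjusted p of 0.685. In this list Gadd45a and Vegfa passed 1.5 times the highest other library in OGT-sufficient replicate 3. The 9 tested genes of serine and one-carbon metabolism beyond the members had 0 under the p threshold in either direction and a median of 0.08. Aldh1l2, not tested and named after its values were seen, passed the 1.5 times limit in OGT-sufficient replicate 3 on 3 counts.

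Among 12 tested amino acid transporters beyond the members, 1 had an unadjusted p under 0.05 and was lower (4.01% over all genes tested). This was Slc38a1, a sodium-coupled carrier of glutamine and other small neutral amino acids, at 148, 144 and 151 CPM in OGT-sufficient and 104, 100 and 106 CPM in OGT-deficient cells. The values were tight within each group and far apart between them, with a log2 fold change of -0.51 (SE 0.10), an unadjusted p of 0.000689 and an adjusted p of 0.215 by edgeR's quasi-likelihood test. The unadjusted p stayed under 0.05 in all 13 alternatives, and the adjusted p ranged from 0.0685 to 0.935. The median over the 12 transporters was -0.11. Of the 12, 1 passed the 1.5 times limit in OGT-sufficient replicate 3, beside 3.31% of all genes tested. This was the glycine transporter Slc6a9 (3.99, 3.49 and 12.6 CPM against 4.11, 5.54 and 2.61 CPM), named after its values were seen.

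Of 20 tested genes by which mTORC1 senses amino acids, 1 was lower and 1 higher at an unadjusted p under 0.05, with a median log2 fold change of 0.03. Gatsl2, which belongs to the CASTOR family of arginine sensors, was measured at 9.31, 9.93 and 10.2 CPM in OGT-sufficient and 19.0, 14.9 and 15.1 CPM in OGT-deficient cells. Its groups did not overlap, where 5.72% of all genes tested were higher without overlap. The log2 fold change of Gatsl2 was 0.73 (SE 0.20) with an adjusted p of 0.423 by edgeR's quasi-likelihood test. Rragb, a Rag GTPase, was at 3.19, 2.68 and 3.93 CPM against 1.54, 1.26 and 1.30 CPM, a log2 fold change of -1.24 (SE 0.38) with an adjusted p of 0.546. Its counts were 12, 10 and 15 against 6, 5 and 5, so that it passed the low-count filter only through the group where it was high, and it was not tested where each library had to reach 10 counts. The protein of Rragb is nearly identical to that of Rraga, and how reads were split between the genes was not examined.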

How the data were processed

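YFP+ CD4+ Treg cells of 3 OGT-sufficient and 3 OGT-deficient mice were profiled by paired-end RNA-seq. The authors deposited raw read counts per gene in 1 table. The submitters' processing notes name Trimmomatic 0.33, Bowtie2 2.2.4.0, featureCounts, edgeR and mm10, whereas the study's methods name Cuffquant for abundance; strand and multi-mapping settings are not given in the sources used here. The table's 11 columns with the authors' own comparison, ranges and means were not used.

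Counts were tested with edgeR 4.0.16 in R 4.3.3 (TMM scaling, filterByExpr at a minimum count of 10, glmQLFit and glmQLFTest, Benjamini-Hochberg adjustment over all 10949 genes tested, adjusted p threshold 0.1), after a check on simulated data. Levels are counts relative to TMM-scaled library sizes (CPM). Lengths and overlaps came from GENCODE M21, promoters from RefSeq GRCm38.p6; 1 promoter match is not reported here. Alternatives were DESeq2 1.42.0, edgeR's exact test, other scalings and filters, a fit blocked by replicate number, and fits without each library in turn. Total counts of 3375454 to 4103552 per library put a count of 3 at 0.756 to 0.805 CPM. Replicates were separate libraries and differed beyond sampling noise (chi-square per degree of freedom 3.31 to 22.0); p-values measure the spread between these libraries. The members, lists and tests were chosen with earlier results of these data known. All 35 members, Ogt, pathway genes with an unadjusted p under 0.05 and defining markers were to be named; further genes are said to be chosen after their values were seen. Of the markers, Hba-a1, Klra8, Ccl19 and Ccl21a were at 0 in all libraries.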

Additional observations from a re-analysis of the deposited data

How the results depend on the processing

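No member had an adjusted p under 0.1 in the fit of all 6 libraries or in any of the 13 alternatives. Genes with an adjusted p under 0.1 numbered 3, against 40 by DESeq2, 80 by edgeR's exact test, 131 without a low-count filter, 0 with the replicate number as a block and 0 to 9 on leaving out 1 library (0 without OGT-deficient replicate 2 or 3, 9 without OGT-sufficient replicate 3). Genes with an unadjusted p under 0.05 numbered 777, against 502 by DESeq2, 1208 without a filter and 462 to 889 on leaving out 1 library. Members at that threshold numbered 3, and 1 to 4 on leaving out 1 library, with Lars the one left without OGT-deficient replicate 3 and Asns without OGT-sufficient replicate 1. The median log2 fold change of the amino acid response genes, -0.182, ranged from -0.313 to -0.07, and that of the synthetases, -0.018, from -0.073 to 0.046. Members lower without overlap numbered 4 with all libraries and 4 to 9 on leaving out 1 library. Members higher without overlap numbered 0 with all libraries and 0 to 4 on leaving out 1. With 1 library fewer, groups separate more easily, and the share over all genes was not counted in those fits. These ranges are therefore no result about the members. The sign held in every setting for 17 of 32 members. It turned for Cars by DESeq2 (0.008), without a filter (0.043) and with the replicate block (0.029), for Farsb (0.024) and Rars (0.014) without a filter, and with library size alone for Gars (-0.014), Iars (-0.042), Kars (-0.014), Sesn2 (-0.007) and Shmt2 (-0.03). On leaving out 1 library, log2 fold changes ranged from -0.183 to 0.288 for Cars, -0.154 to 0.01 for Eprs, -0.14 to 0.031 for Farsa, -0.125 to 0.215 for Farsb, -0.044 to 0.13 for Gars, -0.015 to 0.071 for Iars, -0.089 to 0.154 for Kars, -0.001 to 0.141 for Mars, -0.175 to 0.156 for Rars, -0.259 to 0.13 for Atf4, -1.232 to 0.755 for Atf5, -0.43 to 0.495 for Ddit3, -0.194 to 0.244 for Sesn2, -0.046 to 0.086 for Shmt2 and -0.014 to 0.221 for Slc3a2. The cause of these turns was not tested. Same-numbered libraries did not deviate together (r of -0.281, 0.00726 and -0.118). This gives no sign that the numbers paired the mice, but deviations from means of so few libraries cannot exclude it. The 1.5 times limit and its scaling by library size alone, 6 members against 5, were chosen after seeing the data. The low-count filter kept Chac1, Trib3 and Slc7a11 out; by DESeq2 and without a filter, where they entered, none had an unadjusted p under 0.05.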
